A study of Homo sapiens with 2 samples.

Results

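The 9 genes described here encode MHC class I proteins and the machinery that loads them with peptide. They are HLA-B, HLA-C and HLA-E (class I heavy chains), B2M (the light chain), TAP1, TAP2 and TAPBP (peptide import and loading), ERAP1 (peptide trimming) and NLRC5 (a transcriptional regulator of the group). They were named for their function, with earlier results of these data known. Each was found by its exact symbol among the 19220 gene symbols of the count table. Other classical heavy chain genes are not analysed here.

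The counts come from wild-type H9 cells, a human T lymphocyte line derived as a single clone from a cutaneous T cell lymphoma line. An untreated library, labelled 0 h, was set beside a library of cells given 0.05 µM doxorubicin for 6 h. Doxorubicin is an anthracycline that intercalates into DNA and traps topoisomerase II, which leaves double-strand breaks. There is 1 library per condition, so no replicate spread can be measured, nothing here is a statistical test between conditions, and any other difference between the cultures cannot be told apart from the drug.

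As background, class I molecules show fragments of intracellular proteins to CD8 T cells. Proteasomes cut the proteins, and the TAP1-TAP2 transporter carries the peptides into the endoplasmic reticulum. There, ERAP1 trims them and tapasin, the product of TAPBP, holds an empty heavy chain and B2M close to the transporter until a peptide fits. NLRC5 enters the nucleus and acts at class I promoters through a DNA-bound complex of RFX, CREB/ATF and NF-Y proteins, while interferon gamma raises many genes of the pathway, in part through IRF1. Lymphocytes are known for high class I levels.

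The promoters of these genes carry short sequence elements by which they are usually grouped, and 4 of them are shown because the genes that follow differ in both their elements and their values. RefSeq windows (GRCh38.p14) were matched by symbol for 7 of the 9 genes, and each sequence below is the 250 bases before the annotated start, read 5′ to 3′ on the gene's strand. They are reference sequences, not those of the H9 alleles. In HLA-B, HLA-C and B2M the capitals mark TGACG and ATTGG only where they form the pair described below. ATTGG is CCAAT on the other strand, and matches outside the pair are left in lower case. The capitals also mark GAAANNGAAA in B2M and TAP2, GAANNGAAA in HLA-B and HLA-C (as its reverse complement), and GGGANTNCC in HLA-B. The GAANNGAAA of TAP2 overlaps its GAAANNGAAA and is not marked in full. The windows lie at chr6:31357180-31357429 on the minus strand for HLA-B, chr6:31272093-31272342 on the minus strand for HLA-C, chr15:44711267-44711516 on the plus strand for B2M and chr6:32838740-32838989 on the minus strand for TAP2.
HLA-B: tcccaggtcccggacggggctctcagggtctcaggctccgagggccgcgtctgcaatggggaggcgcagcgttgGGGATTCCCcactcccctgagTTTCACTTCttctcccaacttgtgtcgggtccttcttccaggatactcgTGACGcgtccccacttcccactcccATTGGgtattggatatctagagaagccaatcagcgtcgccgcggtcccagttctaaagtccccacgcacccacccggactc
HLA-C: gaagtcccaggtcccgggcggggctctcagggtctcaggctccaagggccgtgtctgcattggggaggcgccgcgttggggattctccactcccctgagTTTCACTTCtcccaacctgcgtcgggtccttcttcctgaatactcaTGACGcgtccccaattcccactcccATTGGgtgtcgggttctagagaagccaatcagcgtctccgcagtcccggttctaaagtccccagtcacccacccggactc
B2M: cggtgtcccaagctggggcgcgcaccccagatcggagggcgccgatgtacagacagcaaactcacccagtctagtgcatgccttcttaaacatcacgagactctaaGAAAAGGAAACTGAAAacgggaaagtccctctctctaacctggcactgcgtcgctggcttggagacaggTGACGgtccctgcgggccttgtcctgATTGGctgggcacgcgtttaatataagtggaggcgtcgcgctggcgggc
TAP2: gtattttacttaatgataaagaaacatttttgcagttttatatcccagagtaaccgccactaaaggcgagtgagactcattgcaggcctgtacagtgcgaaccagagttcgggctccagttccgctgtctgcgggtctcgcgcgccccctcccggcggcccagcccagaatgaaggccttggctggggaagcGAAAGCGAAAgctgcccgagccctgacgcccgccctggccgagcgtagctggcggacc

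The pair of TGACG and, 15 to 25 bases further on in the same strand, ATTGG was found in 3 of the 7 members with a window, namely HLA-B, HLA-C and B2M. The search covered both strands, and the motif forms were chosen after the sequences were seen. Across all 27305 genes with a window, 138 (0.505%) held the pair. In HLA-B it spanned 106 to 77 bases before the start with 20 bases between, in HLA-C 105 to 76 bases with 20 between, and in B2M 75 to 45 bases with 21 between. The interferon-response form GAAANNGAAA was found in B2M, TAP1, TAP2 and TAPBP, against 3.71% of all genes with a window. A gene with several annotated starts counted if any of its windows matched, and TAP1 matched at 1 of 2. The shorter form GAANNGAAA, which can overlap the longer one, was found in HLA-B, HLA-C, TAP2 and ERAP1 (at 1 of 2 starts), against 8.0%. The kappaB form GGGANTNCC was found in HLA-B and TAPBP, against 4.59%. No other kappaB form was searched for, so the genes without this form may hold kappaB sites of another form. These are matches of letters and say nothing of binding in H9 cells. The 3 genes with the pair differed in unadjusted log2 ratio: HLA-C had 0.07, HLA-B -0.22 and B2M -0.40. After the adjustment for length and GC content described further on, the values were 0.28, -0.04 and 0.33, another order. The 81 measured genes with the pair had an unadjusted median of 0.07, against 0.01 for all 8869 measured genes with a window.

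All 9 genes were expressed in both libraries. Levels are compared between genes as CPM (counts scaled to library size by TMM) per kilobase of transcript, the per-length level. B2M stood highest at 1471 untreated and 1117 with doxorubicin, followed by HLA-B at 776 and 666. HLA-C, TAP1, HLA-E and TAPBP lay in a middle band between 97.0 and 203 over both libraries. TAP2 and ERAP1 lay below them, between 36.1 and 60.0, and NLRC5 was lowest at 4.84 and 6.82. On these transcript lengths TAP1 and HLA-C traded places: HLA-C was above TAP1 in the untreated library (163 and 151) and below it in the treated library (170 and 203). In each library the counting intervals of neighbours in this order did not overlap. The order depends on the transcript taken: with the median annotated length, TAP1 was above HLA-C in both libraries (215 and 213 untreated, 288 and 223 treated), and ERAP1, at 314 and 480, came directly after B2M and HLA-B. The 9 genes together took 0.428% of all counts untreated (95% Wilson interval 0.425 to 0.430) and 0.452% with doxorubicin (0.450 to 0.454). These are shares of the raw totals. With TMM scaling, as used elsewhere here, the summed counts of the 9 had a log2 ratio of 0.013 (0.003 to 0.022).

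**Figure D1:**
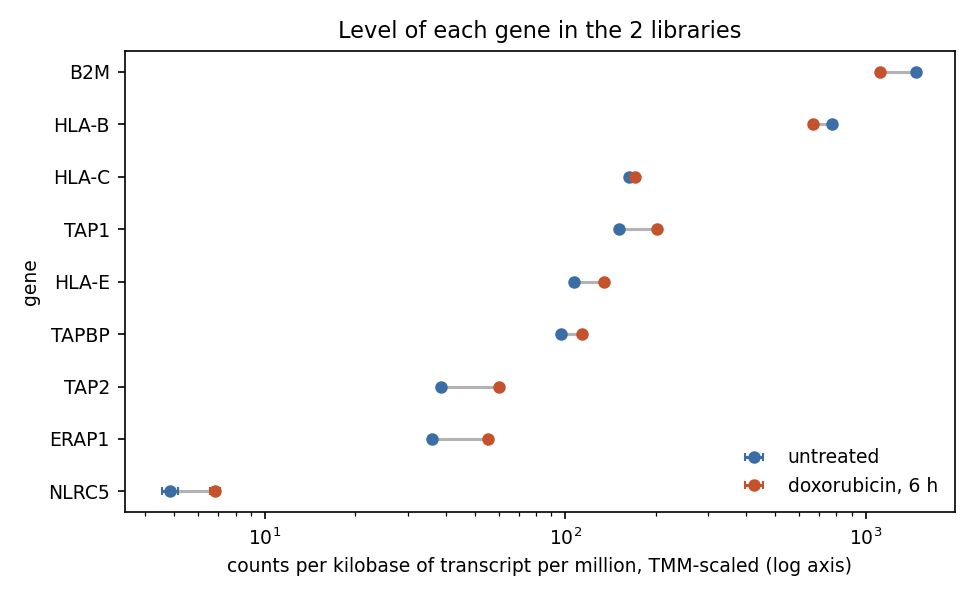
Level of each gene in the untreated library (blue) and the doxorubicin library (red), in CPM per kilobase of transcript on a log axis, with 1 library per point and bars for the 95% counting interval. B2M runs from 1471 to 1117 and NLRC5 from 4.84 to 6.82, and the 7 genes other than B2M and HLA-B have their red point to the right of the blue one.

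Between the libraries, TAP2 and ERAP1 were higher with doxorubicin by the size rule, which asks for at least 1.5-fold and an exact 95% Clopper-Pearson counting interval that excludes 1. The 2 genes called are set against 7.26% of all 11244 measured genes called higher by the same rule. None of the 9 was called lower, against 9.57% of measured genes. The 7 other genes ranged in log2 ratio from 0.50 (NLRC5) to -0.40 (B2M). The median log2 ratio of the 9 was 0.34, and that of all measured genes was 0.007 with an interquartile range from -0.28 to 0.27. In log2 ratio, 5 of the 9 lay above that range and B2M below it. In bulk RNA, a change in the share of cells that express a gene and a change in RNA per cell cannot be told apart. The intervals cover counting error only.

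**Figure D2:**
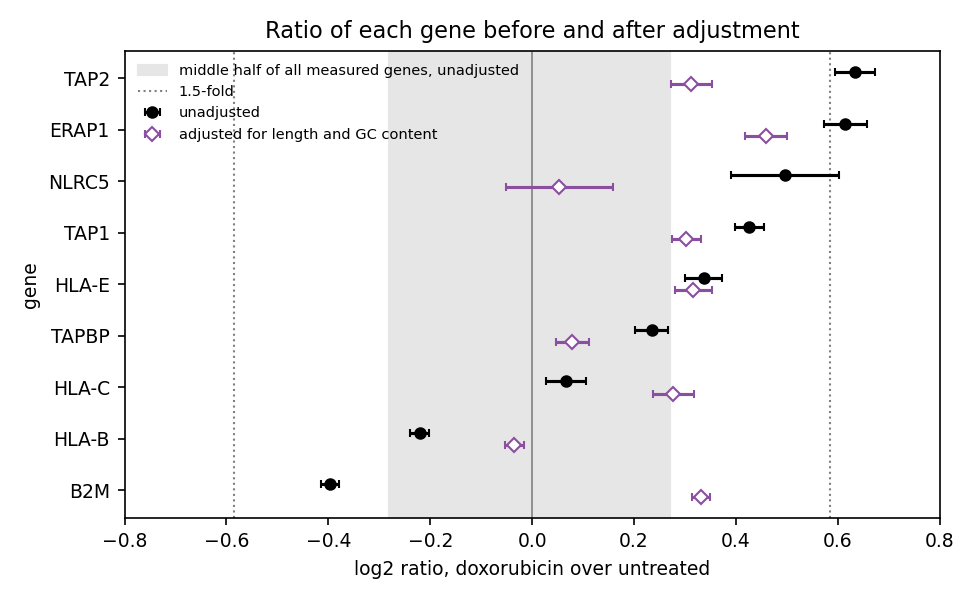
Log2 ratio of doxorubicin over untreated for each gene, as TMM-scaled counts and after removing the trend with GC content and the lengths of transcript and coding part, with bars for the 95% counting interval and dotted lines at 1.5-fold. TAP2 and ERAP1 lie just past the right line before adjustment (0.63 and 0.61), and after it the 9 genes run from -0.04 to 0.46.

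The heavy chain genes and B2M, which together make the class I molecule at the cell surface, lay lowest of the 9 in log2 ratio except for HLA-E. HLA-E presents signal peptides of other class I chains to NKG2 receptors of NK cells. It had 9144 counts untreated and 18010 with doxorubicin, a log2 ratio of 0.34 (0.30 to 0.37). HLA-C, a ligand of KIR receptors as well as of T cell receptors, had 8236 and 13446 counts and a log2 ratio of 0.07 (0.03 to 0.11). HLA-B, the most abundant heavy chain of the 3, had 39565 and 52949 counts and a log2 ratio of -0.22 (-0.24 to -0.20). None of the 3 passed the size rule. Their summed counts were 56945 and 84405, a log2 ratio of -0.07 (-0.09 to -0.06), so the HLA-E and HLA-C values were offset in the sum by HLA-B.

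B2M, which every class I heavy chain needs to reach the surface, had 45691 and 54095 counts. In CPM this was 1387 untreated and 1053 with doxorubicin, and the log2 ratio was -0.40 (-0.42 to -0.38), short of the size rule. The ratio of summed heavy chain to B2M reads is free of library scaling, and per length it was 0.711 untreated and 0.870 treated. Taken on the summed counts, without the lengths, this ratio moved by a log2 difference of 0.32 (0.30 to 0.35) toward the heavy chains. HLA-B against B2M alone moved by 0.18 on the same scale, but by -0.37 after the adjustment for length and GC content described further on, so this direction turns with it. Both differences rest on B2M, whose own log2 ratio changes sign in that adjustment. These 2 pairs, and those that follow, were chosen after the values were seen. Stretches of 50 bases of the heavy chain transcripts also occur in other annotated genes, coding or not. This held for 21.7% of those of HLA-B, 8.33% of HLA-C and 6.80% of HLA-E, and none of B2M. For protein-coding genes alone the shares were 3.33% for HLA-B, 8.33% for HLA-C and 5.83% for HLA-E. How reads from such stretches or from H9's own alleles were counted is not stated in the labels or notes, and their part in these values was not tested.

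Genes of peptide import and loading had log2 ratios above 0 in each case. TAP2, a subunit of the peptide transporter, had 7247 counts untreated and 17528 with doxorubicin. Its CPM was 220 and 341, a 1.55-fold higher value (1.51 to 1.59). TAP1, the other subunit, had 14716 and 30839 counts, or 447 and 600.3 CPM, and a log2 ratio of 0.43 (0.40 to 0.45), a value of 1.34-fold that did not pass the size rule. TAPBP had 12015 and 22040 counts and a log2 ratio of 0.23 (0.20 to 0.27). The transporter needs both subunits, and per length TAP1 stayed well above TAP2 in each library. TAP2 gained 0.21 (0.16 to 0.26) over TAP1 in log2 terms. TAP2 shares 32.3% of its exon bases with an annotated read-through transcript, and 35.8% of its 50-base stretches also occur in another gene, so its count is uncertain. For TAP1 that share was 14.5%, and 0.855% of its stretches occur in another protein-coding gene.

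ERAP1, the aminopeptidase that trims peptides to the length class I grooves hold, had 6529 counts untreated and 15586 with doxorubicin. Its CPM was 198 and 303, a 1.53-fold higher value (1.49 to 1.58), so the lower end of the counting interval lies under the 1.5-fold limit. The neighbouring gene ERAP2 encodes a related trimming enzyme with a transcript of similar length (5705 bases, against 5495 for ERAP1). ERAP2 had 5527 and 8692 counts and a log2 ratio of 0.01. The count ratio of ERAP1 to ERAP2 was therefore 1.18 untreated and 1.79 treated, a log2 difference of 0.60 (0.54 to 0.67). Of ERAP1's 50-base stretches, 3.67% occur in another gene. CAST, the measured gene on the other side of ERAP1, had a log2 ratio of -0.19.

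NLRC5, the class I transactivator, had 1072 counts untreated and 2357 with doxorubicin, the lowest of the 9. Its log2 ratio was 0.50 (0.39 to 0.60), a value of 1.41-fold that did not pass the size rule. CIITA, the related transactivator of class II genes, had 1892 and 4295 counts and a log2 ratio of 0.54. NLRC5 against CIITA differed between libraries by -0.05 (-0.18 to 0.08) in log2, which includes 0. Both transcripts are long (6724 bases for NLRC5 and 16059 for CIITA). After the adjustment described further on, NLRC5 had 0.05 (-0.05 to 0.16) and CIITA 0.08 (-0.002 to 0.155), and both intervals include 0. In order of log2 ratio, the counting intervals of TAP2 and ERAP1 overlapped, as did those of ERAP1 and NLRC5 and of NLRC5 and TAP1. From TAP1 down through HLA-E, TAPBP, HLA-C, HLA-B and B2M, the intervals of neighbours did not overlap.

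The order of the log2 ratios followed the order of transcript lengths. Across the 9 genes Spearman's rho between length and log2 ratio was 0.88 and Pearson's r with log2 length was 0.92. Across all 11024 measured genes with a length rho was 0.55. These are descriptions over genes of the same 2 libraries, and genes are not independent replicates. Transcripts run from 943 bases for B2M, through 1547 for HLA-B, 1536 for HLA-C, 2601 for HLA-E, 2959 for TAP1 and 3759 for TAPBP, to 5495 for ERAP1, 5684 for TAP2 and 6724 for NLRC5. When all genes were split into 5 classes of length, the median log2 ratio was -0.39 in the shortest and 0.28 in the longest. Length therefore moves with the result, and its part in the 2 calls was not tested beyond the adjusted values that follow.

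**Figure D3:**
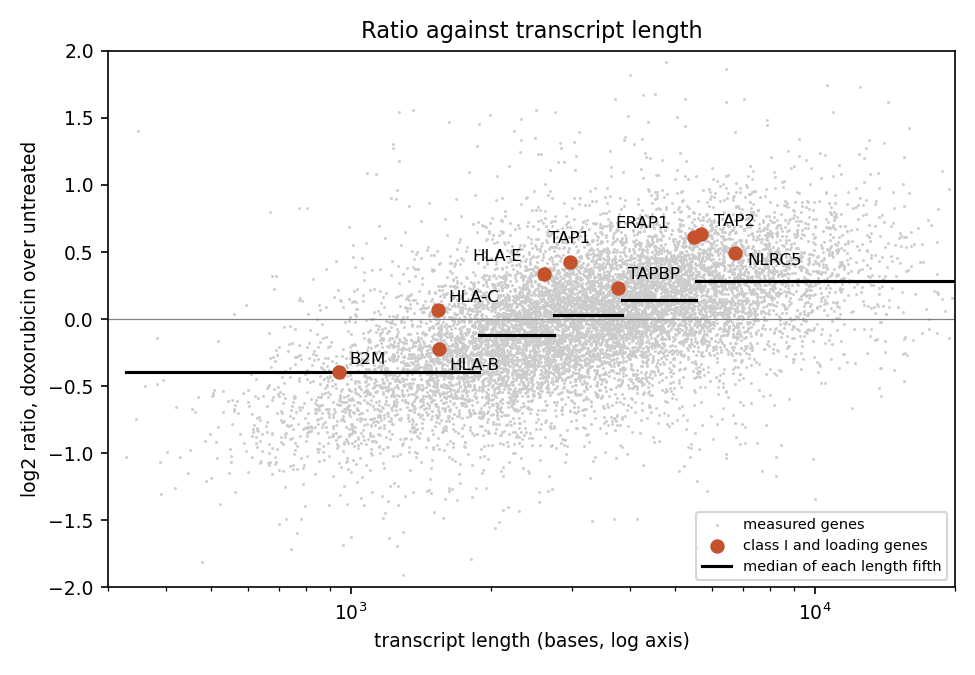
Log2 ratio of doxorubicin over untreated against transcript length (log axis) for measured genes (grey) and the 9 class I and loading genes (red), with black lines for the median of each of 5 length classes; 20 genes fall outside the axes. B2M (943 bases, -0.40) lies on the line of the shortest class, and the 8 other red points lie above the line of their class.

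The log2 ratios were then adjusted for GC content and for the lengths of the transcript and its coding part. After this none of the 9 passed the size rule, against 4.25% of genes called higher and 3.42% called lower. Their adjusted log2 ratios had a median of 0.30, where all genes had an interquartile range from -0.19 to 0.19, and 8 of the 9 were above 0. ERAP1 was highest at 0.46. B2M (0.33), HLA-E (0.32), TAP2 (0.31), TAP1 (0.30) and HLA-C (0.28) lay close together, followed by TAPBP (0.08), NLRC5 (0.05) and HLA-B (-0.04). The sign of B2M thus turned from -0.40 to 0.33, while a smooth curve on length alone put it at 0.17 and HLA-B at 0.09. Against genes of its own length class, ERAP1 stood at percentile 93.1, HLA-E at 90.6, TAP1 at 89.3, HLA-C at 87.5 and TAP2 at 85.1. NLRC5 at 74.4, TAPBP at 74.3 and HLA-B at 67.8 came next, and B2M was at 49.2, near the middle of its class. These percentiles depend on where the classes were cut. ERAP1 (5495 bases) lay at the long end of its class, which ended at 5529 bases. TAP2 (5684 bases) lay at the short end of the next, so their percentiles are not on a like footing. The shortest class ran from 327 to 1885 bases and held B2M, HLA-B and HLA-C. The spread of the 9 log2 ratios was 1.03 before adjustment and 0.49 after it.

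HLA-C and HLA-B, like ERAP1 and ERAP2, are pairs of similar lengths and GC content. The adjustment could therefore change the difference within each of these pairs only little. HLA-C and HLA-B differ in length by few bases, and HLA-C gained 0.29 (0.24 to 0.33) over HLA-B in log2 without adjustment and 0.31 with it. ERAP1 gained 0.60 over ERAP2 without adjustment and 0.63 with it. HLA-E gained 0.27 over HLA-C and 0.04 after adjustment, and TAP2 gained 0.21 over TAP1 and 0.01 after it. TAP1 lies head to head with PSMB9, an immunoproteasome subunit gene of 782 bases, and gained 0.72 (0.67 to 0.78) over it, or 0.15 after adjustment. TAP2 gained 1.08 (1.02 to 1.13) over its neighbour PSMB8, another immunoproteasome subunit, or 0.51 after adjustment.

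Around the 9 genes, 10 lists of the wider pathway, written with earlier results of these data known, held 85 measured genes. Of these, 11 were higher (12.9%, against 7.26% of all measured genes) and 3 lower (3.53%, against 9.57%) by the size rule. Immunoproteasome subunits make the cleavages that favour class I peptides, and their list with the proteasome activators had a median log2 ratio of -0.47 over 8 genes. PSME2 (-0.71) and PSMB10 (-0.66) were lower and PSME3 (0.69) was higher, while PSMB8 had -0.44 and PSMB9 -0.30. Most transcripts of this list are short and the adjusted median was -0.07. After adjustment PSME3 (0.72) was still higher, while PSME2 (-0.42) and PSMB10 (-0.31) were not called. The 3 constitutive catalytic subunits PSMB5, PSMB6 and PSMB7 had a median of -0.33, and none was called. Their median changed sign with the adjustment, to 0.09. The summed immunoproteasome subunits over the summed constitutive ones went from 1.11 to 1.07 per length. Taken on the summed counts, without the lengths, this ratio moved by a log2 difference of -0.08 (-0.12 to -0.04).

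Chaperones and partners of loading in the endoplasmic reticulum had a median of 0.07 over 12 genes, with 2 higher and 0 lower. The higher genes were UGGT1 (0.72), which reglucosylates misfolded glycoproteins, and GANAB (0.59), a glucosidase subunit. Neither passed the size rule after adjustment, at 0.31 and 0.33. CALR (0.13), CANX (0.24) and PDIA3 (-0.00), the lectin chaperones and oxidoreductase of the loading complex, were not called, and SPCS1 of the signal peptidase had -0.56. Cytosolic and endosomal peptidases had a median of 0.20 over 9 genes. LNPEP, an endosomal aminopeptidase related to ERAP1, was higher, with 1205 counts untreated, 4328 treated and a log2 ratio of 1.20. LAP3, a leucine aminopeptidase, was also higher at 0.66. Both passed the size rule after adjustment as well, at 0.97 and 0.67.

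Among 13 transcription factor genes of the class I promoter the median was -0.01. RFXANK, an RFX subunit, was lower at -0.61, but was not called after adjustment (-0.28). RFX5 had 0.10, IRF1 0.14 and NFKB1 0.55, none of them called. In interferon gamma signalling 7 of 9 genes were measured, with a median of 0.08, or -0.01 after adjustment. IFNG itself had 12 and 8 counts, under the minimum of 100, and SOCS1 had 0 in both libraries, which allows up to 3 counts, or 0.0911 CPM untreated and 0.0584 treated.

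The class I-like and stress ligand list had 6 of 20 genes measured, with a median of 0.17, or 0.44 after adjustment. MR1, which presents vitamin B metabolites, was higher at 0.64, but was not called after adjustment (0.42). HLA-F had 3337 and 4734 counts and a log2 ratio of -0.14, and HLA-G had 1 and 0 counts. Turnover and signal peptide processing had a median of 0.29 over 9 genes, with SEL1L, a subunit of the degradation machinery, higher at 0.71. SEL1L was not called after adjustment (0.51). Of 14 receptors for class I molecules 3 were measured, with a median of -0.32, or -0.24 after adjustment, and 1 of the 3 was above 0. CD8A was higher on few counts (22 and 81, log2 ratio 1.22 with an interval from 0.55 to 1.99). The class II pathway had a median of 0.005 over 15 genes: HLA-DOA (0.79) and LGMN (0.73) were higher, HLA-DRA had -0.00 and CD74, the invariant chain, -0.40. After adjustment the class II median was 0.31, with 13 of 15 genes above 0 and 3 higher, against 4.25% of all adjusted genes called higher. The class I-like and class II adjusted medians thus both lay above the 0.30 of the 9 class I and loading genes.

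**Figure D4:**
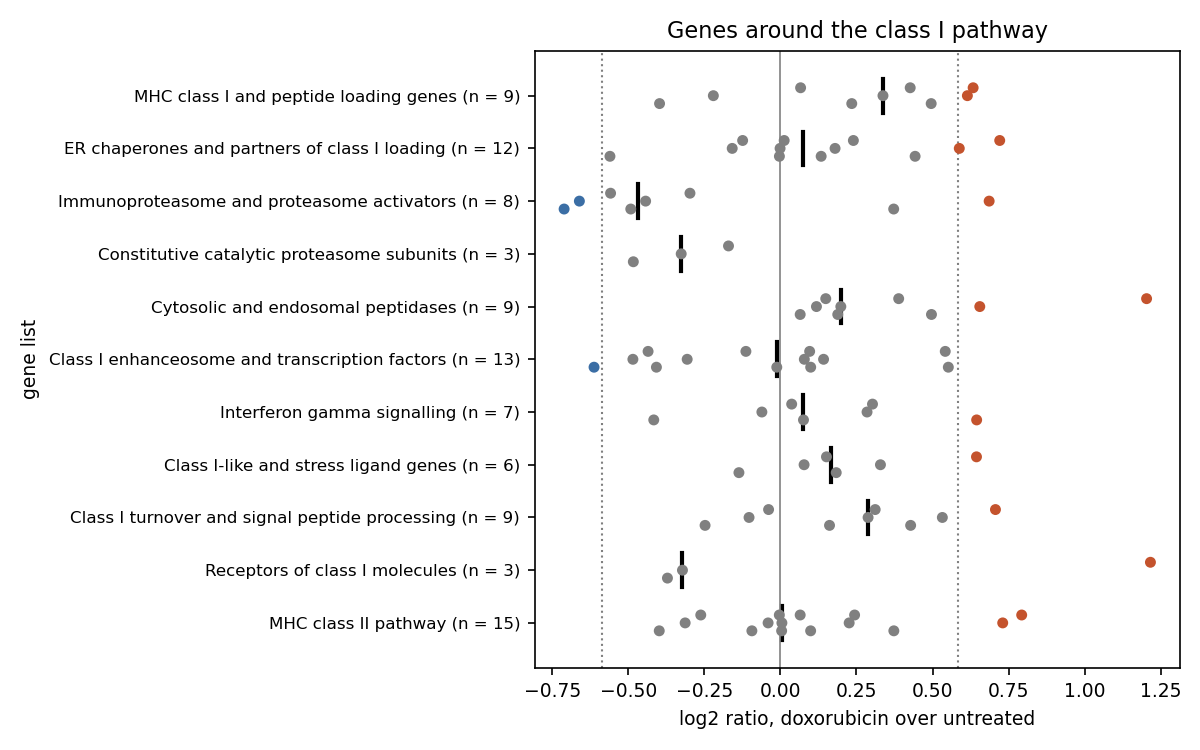
Log2 ratio of doxorubicin over untreated for every measured gene of the class I and loading list and of the 10 lists around it, with red for genes called higher, blue for genes called lower, dotted lines at 1.5-fold and a bar at each list's median. The values are unadjusted, and the medians run from -0.47 for the immunoproteasome list to 0.34 for the 9 class I and loading genes, an order that differs after adjustment.

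Genes with the ratio nearest to a member at a similar level were drawn from all measured genes. For TAP2 these were SUPT6H (0.63) and TRIP12 (0.64) out of 759 genes within 1.5-fold of its count, and 231 measured genes lay inside TAP2's counting interval. For B2M they were ATF4 (-0.40) and HNRNPA2B1 (-0.39) out of 91, with 236 genes inside its interval. With 1 library per condition, likeness in this sense is likeness of a single ratio. Of the measured genes beside the members on the chromosome, HLA-DMB next to PSMB9 and TAP1 had 0.37, HLA-DOB beside TAP2 -0.31, MICA beside HLA-B 0.33 and POU5F1 beside HLA-C -0.57. SPG11 and SORD flank B2M at 0.20 and 0.43, RGL2 and ZBTB22 flank TAPBP at 0.25 and 0.32, HERPUD1 and CPNE2 flank NLRC5 at 0.03 and -0.54, and TRIM39 and GNL1 flank HLA-E at 0.05 and 0.17.

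The libraries summed to 33730703 counts untreated and 50174434 treated, a depth ratio of 1.49. Of 11 T cell markers 8 were measured, among them CD3D (7122 and 7431 counts), CD3E (7149 and 8864) and CD4 (768 and 1387), but CD2 (0 and 2), CD7 (8 and 8) and CD28 (8 and 13) were at or near 0. The CD3 genes differed in direction: CD3D had a log2 ratio of -0.58 and CD3E -0.33, whereas CD3G (931 and 3134 counts) was higher at 1.11 and was the only marker of its list called. Markers of other cell types were mostly at or near 0: the 8 myeloid markers summed to 14 and 23 counts, and 2 of 7 B cell, 2 of 6 NK cell and 3 of 10 epithelial and fibroblast markers were measured. CD79A (6007 and 6628 counts) and EPCAM (2591 and 3236) were the most abundant of those, with PAX5 and KRT19 at 0. In summed CPM the T cell list had 1276 and 1329, the B cell list 206 and 150, the epithelial and fibroblast list 87.4 and 73.8 and the NK cell list 58.8 and 50.7. Their part in the class I values was not tested.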

How the data were processed

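Poly(A)-selected RNA of 1 untreated and 1 doxorubicin-treated H9 culture was sequenced. The authors deposited raw counts per gene symbol, whole numbers with no scaling; the submitters' processing notes name HISAT2, featureCounts and hg19. For tool versions, annotation, strandedness and multiply aligned reads, the sources used here give no details. All symbols were scaled together by TMM (edgeR 4.0.16, R 4.3.3). The log2 ratio of treated over untreated was taken after adding 0.5 to each count, with exact Clopper-Pearson 95% intervals (SciPy 1.17.1). Genes with at least 100 counts over both libraries were measured (11244 of 19220; 4570 were 0 in both). A gene was higher or lower at 1.5-fold or more with an interval excluding 1. With 1 library per condition no dispersion could be estimated and no p-value is given. Intervals and floors cover counting error only, since PCR copies cannot be told from separate molecules here.

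Lengths came from GENCODE 29, a GRCh38 annotation that differs from the hg19 build of the counts (11024 measured genes matched). TAPBP took its longest coding transcript. The adjusted ratio is the residual of a fit with natural splines (4 degrees of freedom) on transcript length, coding length and GC content over 11022 genes, which took up 39.7% of the variance. The code was checked on simulated data. Named genes were the 9 members, up to 2 highest and 2 lowest called genes of each pathway list, 12 fixed pathway genes, nearest-ratio genes and chromosomal neighbours. SPCS1, NFKB1, IFNG, SOCS1, HLA-G, HLA-DRA, CD74 and the cell type markers were named outside this rule, after their values were seen. A gene of the pathway lists that the rule names is not reported here. The members and lists were chosen with earlier results of these data known. Alternatives were DESeq2 1.42.0 size factors, total-count scaling, other added counts, count minimums, size limits and confidence levels, and a lowess curve on length.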

Additional observations from a re-analysis of the deposited data

How the results depend on the processing

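With DESeq2 size factors or an added count of 2, all 9 log2 ratios stayed inside their counting intervals. Scaling by total counts shifted every ratio by 0.07, so that the median of the 9 was 0.40 and no sign changed. The 2 members called higher became 0 after adjustment for GC content and both lengths, 0 after a lowess curve on length (median of the 9 0.38), 5 at a smaller size limit and 0 at 2-fold. At the smaller limit, 1 member was lower, where the 1.5-fold limit gave 0. The sign of 1 member (B2M) changed with the adjustment, and of 2 (HLA-B and B2M) with lowess. Of the 85 pathway genes, 11 were called higher, and with the adjustment 7 were, against 4.25% of all adjusted genes. Of the 7, 6 were among the 11 and 1 (HLA-DMB) was not. The count was 21 at the smaller limit and 2 at 2-fold. The 3 called lower became 0 with the adjustment, against 3.42% of all adjusted genes. They became 0 with lowess, 15 at the smaller limit, 0 at 2-fold and 6 with no count minimum. The share of all measured genes called was taken only at the 1.5-fold limit, without and with the adjustment. Counts of members and pathway genes under the other settings therefore have no background share beside them. The adjustments take up length by construction, and what causes the relation with length was not tested. Of the 10 list medians, 1 changed sign with total counts (transcription factors), 2 with the adjustment (constitutive proteasome subunits and interferon gamma signalling) and 1 with lowess (constitutive subunits). Levels per length and their order depend on the transcript chosen: with the median annotated transcript, ERAP1 read 314 untreated in place of 36.1. Depth limits the precision most for NLRC5, whose interval was the widest of the 9. No replicate could be left out and no paired analysis was possible because each condition has 1 library, and a DESeq2 count fit was not run for the same reason.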
